A study of Homo sapiens with 12 samples.

Results

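The genes of antigen presentation examined here are HLA-B, HLA-C, HLA-E, B2M, TAP1, TAPBP, PSMB9, NLRC5 and CD74. They were taken by their symbols from the deposited table of raw counts, where the 9 genes are 9 of 55773 entries. All 9 passed the filter on low counts, which kept 15691 entries. Poly(A) RNA had been sequenced from RBE, an established human cholangiocarcinoma (bile duct cancer) line, to ask how 2-HG, the product of mutant IDH1, alters the expression programme of p53. All 4 groups shared the line, the medium and 22 days of pretreatment, and each held 3 libraries. AG120_Nutlin cells had 5 µM AG-120, an inhibitor of mutant IDH1, and then 5 µM Nutlin, an inhibitor of MDM2 that activates p53, for 72 hours. The vehicle_Nutlin cells had vehicle (DMSO) for the 22 days and then the same Nutlin. AG120 cells had 5 µM AG-120 and then DMSO in place of Nutlin. The vehicle cells had DMSO in both steps and neither drug. As a model, RBE is a single tumour line grown in dishes, and neither 2-HG nor surface HLA was measured in these data.

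Class I molecules show peptides from inside a cell to CD8 T cells and natural killer cells. A heavy chain (HLA-B, HLA-C or the non-classical HLA-E among others) pairs with beta-2 microglobulin, the product of B2M. Proteasomes cut the peptides, and PSMB9 is a catalytic subunit that replaces its constitutive counterpart in the immunoproteasome. The transporter made of TAP1 and TAP2 carries peptides into the endoplasmic reticulum, and tapasin, encoded by TAPBP, holds the empty class I molecule beside it. NLRC5 is a transcriptional coactivator of class I genes, as CIITA is of class II genes. CD74 is the invariant chain, which occupies the groove of class II molecules and escorts them to endosomes. Interferon gamma is the classical inducer of most of these genes, and TAP1 is also a described target of p53.

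TAP1 and PSMB9 lie back to back in the class II region of chromosome 6, and the stretch between them is known as a shared, bidirectional promoter. In RefSeq (GRCh38.p14) their start sites point away from each other with 487 bases between them. The windows of 250 bases before each start site overlap by 13 bases. These windows are shown because these neighbours moved in opposite directions with Nutlin, and that of CD74 because it fell with PSMB9. Capitals mark motif matches, and each sequence runs 5′ to 3′ on the strand of its gene. The windows are chr6:32853705-32853954 (minus strand, the TAP1 window next to PSMB9), chr6:32853942-32854191 (plus strand) and chr5:150412911-150413160 (minus strand).
TAP1: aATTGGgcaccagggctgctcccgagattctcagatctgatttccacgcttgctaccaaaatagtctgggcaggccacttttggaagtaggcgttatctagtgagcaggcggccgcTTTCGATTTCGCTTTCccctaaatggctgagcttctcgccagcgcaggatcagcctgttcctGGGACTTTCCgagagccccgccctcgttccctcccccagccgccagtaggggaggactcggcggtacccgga
PSMB9: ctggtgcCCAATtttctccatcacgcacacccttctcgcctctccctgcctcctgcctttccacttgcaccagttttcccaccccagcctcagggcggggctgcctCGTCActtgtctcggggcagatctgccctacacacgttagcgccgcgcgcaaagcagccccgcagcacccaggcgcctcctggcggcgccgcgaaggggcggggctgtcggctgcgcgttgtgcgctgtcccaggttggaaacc
CD74: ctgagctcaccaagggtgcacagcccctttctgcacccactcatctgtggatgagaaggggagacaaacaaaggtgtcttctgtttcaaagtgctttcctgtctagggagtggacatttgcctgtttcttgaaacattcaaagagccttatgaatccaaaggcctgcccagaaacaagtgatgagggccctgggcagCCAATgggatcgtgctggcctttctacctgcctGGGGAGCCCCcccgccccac

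The letters GAAANNGAAA, the core of an interferon response element, occurred in 3.02% of 35116 promoter windows of this length when both strands were read. In the TAP1 window they lay on the reverse strand as overlapping matches from -134 to -119, counted back from the start site. TAP1 also held a kappa B site from -72 to -63, a motif found in 5.21% of windows. A kappa B site was matched in the windows of HLA-B, HLA-C, B2M, TAPBP and CD74 as well. Neither motif matched in the PSMB9 window, which covers only 250 of the 487 bases between the start sites. The TAP1 matches lie in the rest of that stretch, so the shared promoter holds both motifs. PSMB9 had a CRE core (TGACG, in 21.2% of windows) on the reverse strand from -144 to -140. Its CCAAT box (32% of windows) from -243 to -239 is the same stretch of letters as that of TAP1 from -249 to -245, inside the shared bases. CD74 had a kappa B site from -20 to -11 on the reverse strand and a CCAAT box from -53 to -49. Windows were listed for 7 of the 9 genes, and 3 of them (TAP1, B2M and TAPBP) held an interferon core. A gamma activated site (TTCNNNGAA, in 6.57% of windows) was matched only in the other listed window of TAP1, among those of the 7 genes. The single decamer of a p53 response element, in 5.57% of all windows, was matched in none of them.

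Library totals were 16840161 to 27499433 counts, with a median of 19221201. Levels are CPM (read counts scaled to a common library size) adjusted by TMM, which corrects for composition but not for gene length, so levels of different genes are not compared. MDM2 was at 2110 to 3480 CPM in the 6 Nutlin libraries, against 141 to 194 CPM in the 6 others, and CDKN1A, which encodes p21, was at 7830 to 10400 CPM, against 371 to 489 CPM. On the first principal component, which held 76.7% of the variance, Nutlin libraries stood on one side and all others on the other. Later components of 7.88%, 4.89% and 3.11% followed vehicle_Nutlin replicate 3, vehicle_Nutlin replicate 2 and AG120 replicate 1. The deviation of a library from its group also went with transcript length across 13510 genes, which are not independent replicates. Its Spearman correlation with length was between -0.369 and 0.385 in the AG120 and vehicle_Nutlin libraries, and between -0.08 and 0.095 in AG120_Nutlin and vehicle libraries. The 3 libraries that stood apart are kept below, and calls of the 9 genes that change without them are given both ways. That second fit left vehicle_Nutlin with 1 library, whose spread was assumed to be that of the other groups. The labels do not say whether replicates are separate cultures, so p-values measure the spread between these samples, which may be technical.

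Markers of leukocytes, which carry CD74 and class II molecules at high levels, were scarce. PTPRC had 0 to 2 counts per library and CD3E had 0 in all 12. The 12 leukocyte markers summed to 13 to 14.2 CPM in AG120_Nutlin, 9.82 to 16.8 CPM in vehicle_Nutlin, 11 to 13.1 CPM in AG120 and 9.28 to 9.47 CPM in vehicle, most of it from the integrins ITGAX and ITGAM. Of these, ITGAX rose with Nutlin in vehicle cells (0.72 on the log2 scale, adjusted p = 0.00792), and the part of these markers in the results was not tested. The 7 biliary markers summed to 2700 to 4530 CPM, and among them EPCAM, CDH1 and KRT7 fell with Nutlin in both kinds of cells. In bulk RNA, fewer cells of a type and less RNA per cell cannot be told apart.

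The first comparison asked what Nutlin did in AG-120 cells (AG120_Nutlin over AG120). TAP1 rose 4.65-fold, while CD74 fell 5.12-fold, PSMB9 fell 3.53-fold and HLA-B fell 1.35-fold. That is 1 of 9 genes higher and 3 lower at an adjusted p of at most 0.05 (edgeR quasi-likelihood test, Benjamini-Hochberg over all genes), where 27% of all tested genes were higher and 28.8% lower. The median change of the 9 genes was -0.37 (log2), against 0.001 over all genes tested. The second comparison asked the same in vehicle cells (vehicle_Nutlin over vehicle). TAP1 rose 5.7-fold and HLA-E rose 1.34-fold, while CD74, PSMB9, NLRC5 and TAPBP fell 3.89-, 2.43-, 1.82- and 1.63-fold. So 2 of 9 were higher and 4 lower, where 26.8% and 27.1% of all genes were. Their median change was -0.30, against -0.02 over all genes tested.

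**Figure D1:**
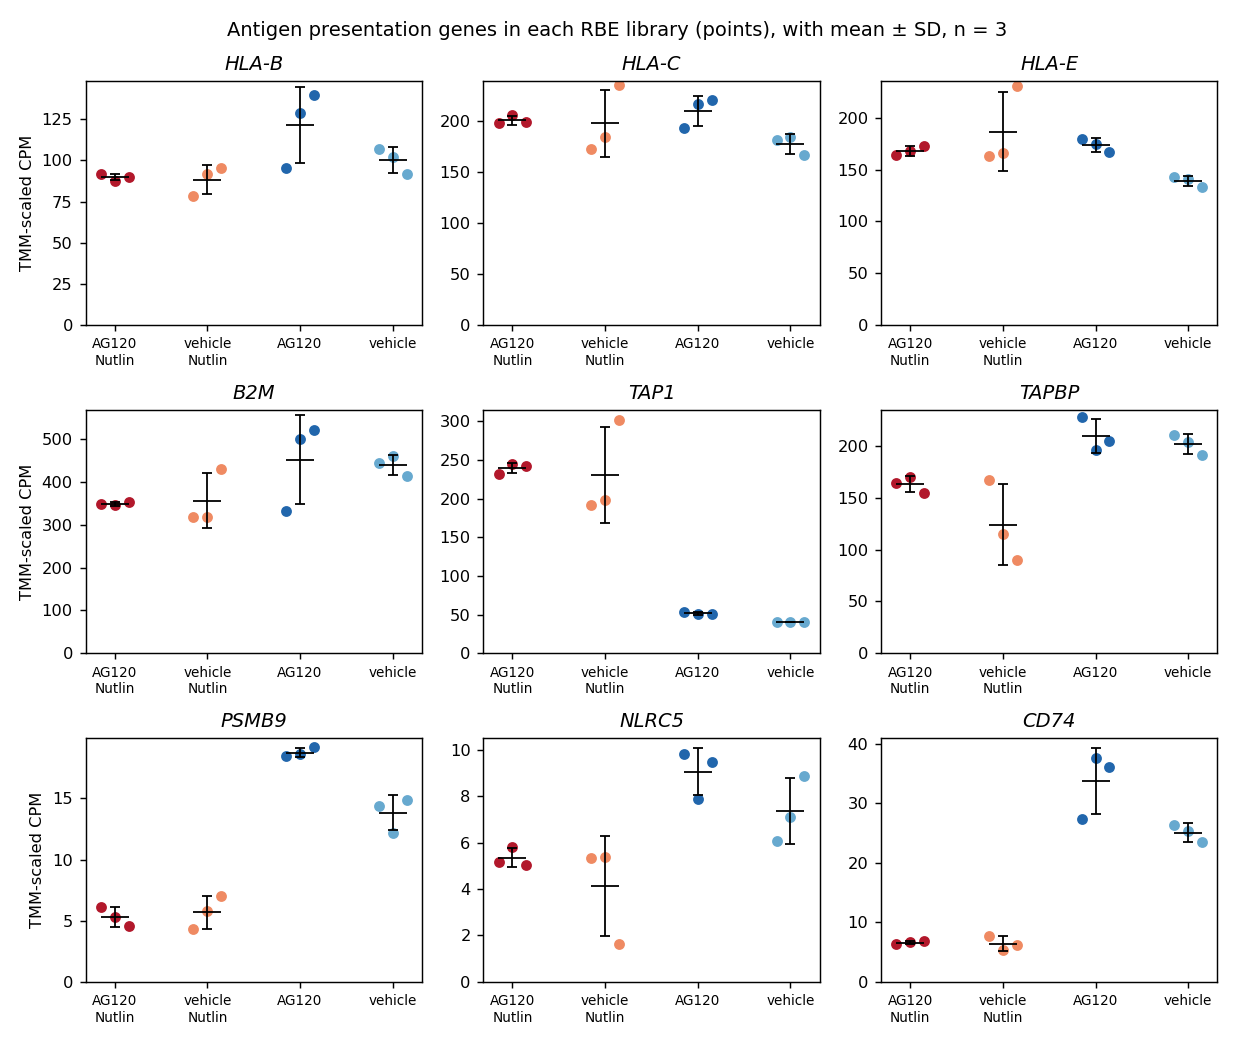
TMM-scaled CPM (vertical axes, from 0) of the 9 genes in each of 12 RBE libraries, by group. Points are libraries in replicate order, and bars are the mean ± SD of 3 libraries. TAP1 stood at 192 to 302 CPM in Nutlin libraries, against 40.3 to 53.6 CPM in the others, and CD74 at 5.39 to 7.72 CPM, against 23.4 to 37.6 CPM.

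Peptide transport and supply held opposing changes. TAP1 (hg19 chromosome 6, 32812986 to 32821755) had 232, 244 and 242 CPM in AG120_Nutlin libraries, 192, 198 and 302 CPM in vehicle_Nutlin libraries, 53.6, 50.2 and 50.9 CPM in AG120 libraries and 40.7, 40.5 and 40.3 CPM in vehicle libraries (replicates 1, 2 and 3). Every Nutlin library lay far above every other library. Nutlin libraries were all higher in 35.1% of all genes tested within AG-120 cells and in 28.3% within vehicle cells. The group means were 239.6 ± 6.31 CPM in AG120_Nutlin, 230.7 ± 61.7 CPM in vehicle_Nutlin, 51.6 ± 1.76 CPM in AG120 and 40.5 ± 0.171 CPM in vehicle (SD, n = 3). The means of both Nutlin groups differed by less than the spread of vehicle_Nutlin, in which replicate 3 was high. The log2 fold change with Nutlin was 2.22 ± 0.15 (SE, adjusted p = 4.67e-08) in AG-120 cells and 2.51 ± 0.15 (adjusted p = 1.89e-08) in vehicle cells. Under the 19 alternatives it was between 2.18 and 2.24 in AG-120 cells and between 2.23 and 2.64 in vehicle cells.

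PSMB9 went the other way. It had 6.14, 5.27 and 4.52 CPM in AG120_Nutlin libraries, 4.28, 5.75 and 7 CPM in vehicle_Nutlin libraries, 18.5, 18.6 and 19.2 CPM in AG120 libraries and 14.4, 12.2 and 14.9 CPM in vehicle libraries. No Nutlin library reached the lowest of the others. Within AG-120 cells 35.1% of all genes tested were separated in this direction, and within vehicle cells 30.9%. The log2 change was -1.82 ± 0.18 (adjusted p = 1.6e-06) in AG-120 cells and -1.28 ± 0.17 (adjusted p = 3.98e-05) in vehicle cells. In hg19 the deposited span of PSMB9 (chromosome 6, 32811913 to 32827362) covers the whole of TAP1 and overlaps PSMB8 and TAPSAR1, a long non-coding RNA. The genes lie on opposite strands, and whether the counting used strand is not given in the sources used here, so reads could have been split or lost between TAP1 and PSMB9. Their counts are uncertain to that extent.

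The neighbours of TAP1 were set beside it in the same libraries, and PSMB8 was picked for its place after its values had been seen. TAP2, the other chain of the transporter, had 16.9, 20.1 and 17.1 CPM in AG120_Nutlin libraries, 19.9, 16.3 and 19.1 CPM in vehicle_Nutlin libraries, 54.9, 52.6 and 50.7 CPM in AG120 libraries and 50.5, 48.2 and 52.3 CPM in vehicle libraries. Nutlin libraries were thus low for TAP2 where they were high for TAP1. Its log2 change was -1.55 ± 0.11 (adjusted p = 6.66e-08) in AG-120 cells and -1.45 ± 0.11 (adjusted p = 1.4e-07) in vehicle cells. Within a library, the ratio of TAP1 to TAP2 CPM was 12.1 to 14.2 in AG120_Nutlin and 9.63 to 15.8 in vehicle_Nutlin, against 0.954 to 1 in AG120 and 0.772 to 0.84 in vehicle. The ratio of TAP1 to PSMB9 CPM was 37.8 to 53.5 in AG120_Nutlin and 34.5 to 44.8 in vehicle_Nutlin, against 2.66 to 2.9 in AG120 and 2.71 to 3.31 in vehicle. Such a ratio needs no scaling between libraries, and that of TAP1 to PSMB9 carries the doubt about reads split between the overlapping genes.

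PSMB8, another immunoproteasome subunit, averaged 61.5 ± 1.48 CPM in AG120_Nutlin, 65.2 ± 16.6 CPM in vehicle_Nutlin, 49.5 ± 5.17 CPM in AG120 and 37.7 ± 1.38 CPM in vehicle. Its log2 change of 0.79 ± 0.15 in vehicle cells passed the test (adjusted p = 0.000597), and it was 0.47 without the 3 libraries. In AG-120 cells the change was 0.31 ± 0.15 and did not pass (adjusted p = 0.0895, and 0.00315 to 0.269 over the alternatives), except in 3 alternatives, among them that without vehicle_Nutlin replicate 3 (0.30).

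**Figure D2:**
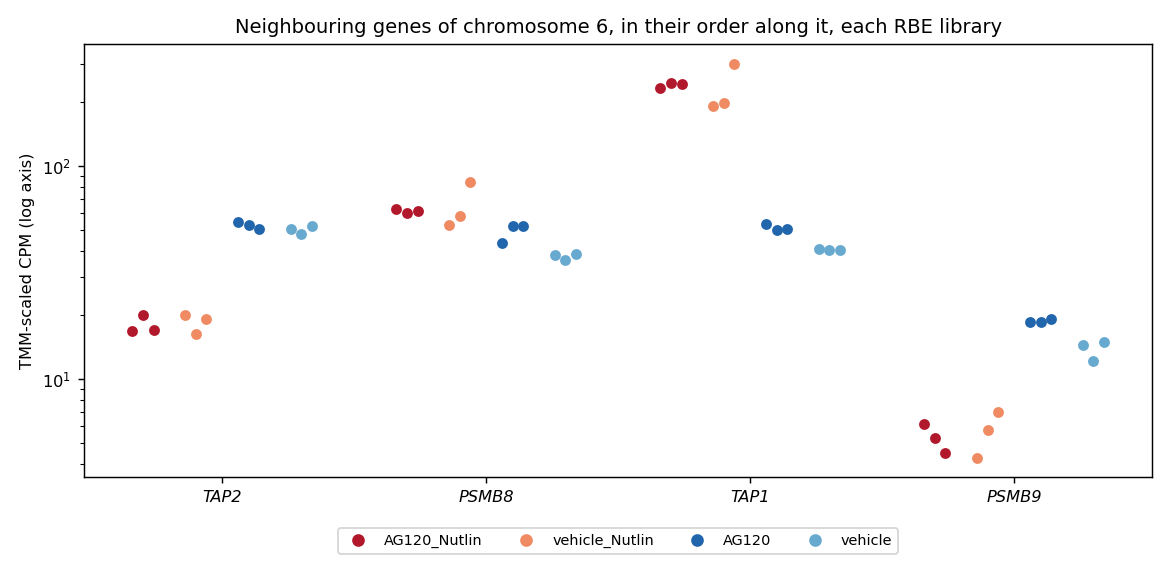
TMM-scaled CPM (log axis) of TAP2, PSMB8, TAP1 and PSMB9, neighbours on chromosome 6, with a point per library and colours for the 4 groups. Nutlin libraries lie below the others for TAP2 (16.3 to 20.1 CPM, against 48.2 to 54.9 CPM) and PSMB9 and above them for TAP1.

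Among the 3 heavy chains, 1 was lower with Nutlin in AG-120 cells, where 28.8% of all genes tested were, and 1 was higher in vehicle cells, where 26.8% were. Both changes were small. HLA-B (chromosome 6, 31321649 to 31324965) had 91.7, 87.8 and 90.1 CPM in AG120_Nutlin libraries, 78.1, 91.7 and 95.3 CPM in vehicle_Nutlin libraries, 95.6, 129 and 140 CPM in AG120 libraries and 107, 102 and 91.6 CPM in vehicle libraries. All AG120_Nutlin libraries lay below all AG120 libraries, as in 35.1% of all genes tested, and the groups of vehicle cells overlapped. The log2 change was -0.44 ± 0.13 (adjusted p = 0.0136) in AG-120 cells and -0.18 ± 0.13 (adjusted p = 0.269) in vehicle cells. The call in AG-120 cells was lost in 3 of 19 alternatives (adjusted p up to 0.0759), which left out AG120 replicate 2, AG120 replicate 3 or AG120_Nutlin replicate 2. With the 3 libraries that stood apart left out, HLA-B was called lower with Nutlin in both (-0.59 in AG-120 cells and -0.38 in vehicle cells). In that fit vehicle_Nutlin held only replicate 1, its lowest library at 78.1 CPM, so the spread of that group did not enter.

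HLA-E (chromosome 6, 30457244 to 30461982), whose product presents signal peptides of other class I chains to natural killer cells, had 164, 168 and 173 CPM in AG120_Nutlin libraries, 163, 166 and 231 CPM in vehicle_Nutlin libraries, 180, 175 and 167 CPM in AG120 libraries and 143, 141 and 133 CPM in vehicle libraries. The vehicle libraries were the lowest 3 of the 12. In vehicle cells it rose by 0.43 ± 0.12 (log2, adjusted p = 0.00928), by 0.24 without vehicle_Nutlin replicate 3, the highest value, and by 0.21 without all 3 libraries that stood apart. A fit of only vehicle_Nutlin and vehicle ended the call (0.43, adjusted p = 0.0536). In AG-120 cells the change was -0.05 ± 0.12 (adjusted p = 0.762).

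HLA-C (chromosome 6, 31236526 to 31239907) was not called in either. It had 198, 206 and 199 CPM in AG120_Nutlin libraries, 173, 185 and 236 CPM in vehicle_Nutlin libraries, 193, 217 and 221 CPM in AG120 libraries and 182, 185 and 167 CPM in vehicle libraries, and the groups with and without Nutlin overlapped in both kinds of cells. The log2 change was -0.065 (95% interval -0.31 to 0.18) in AG-120 cells and 0.155 (-0.09 to 0.40) in vehicle cells. HLA-B and HLA-C are near-identical over long stretches and vary between people, and reads may be shared or lost between them, so their separate values are uncertain. Without the 3 libraries that stood apart HLA-C was called lower in AG-120 cells (-0.13, adjusted p = 0.0257) and was at -0.055 in vehicle cells (adjusted p = 0.49).

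Of the other class I chains listed, HLA-F, a non-classical chain at 20 to 85 counts per library, averaged 1.21 ± 0.134 CPM in AG120_Nutlin and 1.51 ± 0.470 CPM in vehicle_Nutlin, against 2.99 ± 0.594 CPM in AG120 and 2.13 ± 0.362 CPM in vehicle. It fell by 1.30 on the log2 scale in AG-120 cells (adjusted p = 0.00141). In vehicle cells its change was -0.49 and not called (adjusted p = 0.149, and 0.0301 to 0.388 over the alternatives), save without vehicle_Nutlin replicate 3 (-0.80) or all 3 libraries (-0.84). MICA, a stress-induced ligand of the receptor NKG2D, was lower in AG-120 cells (-0.29, adjusted p = 0.0423), a call that 9 of 19 alternatives ended (adjusted p up to 0.164), among them leaving out any AG120_Nutlin or vehicle library, or AG120 replicate 2 or 3. Its change of -0.04 in vehicle cells was not called (adjusted p = 0.769, and 0.042 to 0.963 over the alternatives), save without the 3 libraries (-0.24).

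B2M (chromosome 15, 45003675 to 45011075), the light chain, had 348, 345 and 354 CPM in AG120_Nutlin libraries, 319, 319 and 431 CPM in vehicle_Nutlin libraries, 333, 501 and 522 CPM in AG120 libraries and 443, 461 and 414 CPM in vehicle libraries. Of the AG120 libraries 1 lay below the AG120_Nutlin libraries, and of the vehicle_Nutlin libraries 1 lay among the vehicle libraries. Those are AG120 replicate 1 and vehicle_Nutlin replicate 3, which also stood apart over all genes. The log2 change was -0.37 ± 0.16 in AG-120 cells (adjusted p = 0.0658) and -0.30 ± 0.16 in vehicle cells (adjusted p = 0.134), so B2M was not called. It was called lower in both when AG120 replicate 1 (-0.56 and -0.30) or vehicle_Nutlin replicate 3 (-0.38 and -0.47) was left out. So it was without all 3 libraries (-0.56 and -0.48), where vehicle_Nutlin held only replicate 1. Over the alternatives, the adjusted p ran up to 0.252 in AG-120 cells and 0.336 in vehicle cells.

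TAPBP (chromosome 6, 33267471 to 33282164), which encodes tapasin, had 164, 170 and 155 CPM in AG120_Nutlin libraries, 167, 115 and 90.1 CPM in vehicle_Nutlin libraries, 228, 196 and 205 CPM in AG120 libraries and 211, 204 and 191 CPM in vehicle libraries. Every Nutlin library was below every other, and vehicle_Nutlin replicates 2 and 3 were the lowest. All Nutlin libraries lay below the others in 35.1% of all genes tested within AG-120 cells and in 30.9% within vehicle cells. In vehicle cells TAPBP fell by 0.71 on the log2 scale (SE 0.17, adjusted p = 0.00347), and the change was -0.30 without the 3 libraries. In AG-120 cells the change was -0.36 ± 0.17 and did not pass (adjusted p = 0.0889, and 4.97e-05 to 0.22 over the alternatives). It passed there without vehicle_Nutlin replicate 1 (-0.35) or replicate 3 (-0.37), libraries that add to the shared estimate of the spread, and without all 3 libraries (-0.305).

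NLRC5 (chromosome 16, 57023397 to 57117443) was at low counts, 38 to 258 per library. It had 5.18, 5.81 and 5.05 CPM in AG120_Nutlin libraries, 5.34, 5.39 and 1.62 CPM in vehicle_Nutlin libraries, 9.8, 7.89 and 9.48 CPM in AG120 libraries and 6.06, 7.12 and 8.86 CPM in vehicle libraries. The Nutlin libraries were below the others in both kinds of cells, with vehicle_Nutlin replicate 3 far below the rest. Such a separation held for 35.1% of all genes tested in AG-120 cells and for 30.9% in vehicle cells. In vehicle cells the change was -0.86 ± 0.33 (adjusted p = 0.0414), a call that 11 of 19 alternatives ended (adjusted p up to 0.153), among them leaving out any AG120_Nutlin or AG120 library, or vehicle replicate 2 or 3. Without vehicle_Nutlin replicate 3 it was -0.47, still called (adjusted p = 0.0405), and without all 3 libraries it was -0.495 and not called (adjusted p = 0.0681). In AG-120 cells it was -0.76 ± 0.32 and missed the threshold (adjusted p = 0.0617), while 5 of 19 alternatives called it, among them DESeq2 and the fits without vehicle_Nutlin replicate 3 and without all 3 libraries (-0.70 in the last, adjusted p = 0.0326, 0.000688 and 0.00127, and 0.000688 to 0.142 over the alternatives).

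CD74 (chromosome 5, 149781200 to 149792492) had the largest fall of the 9 genes in both comparisons, except that in vehicle cells without the 3 libraries PSMB9 was at -1.72 and CD74 at -1.71. It had 6.26, 6.7 and 6.76 CPM in AG120_Nutlin libraries, 7.72, 5.39 and 6.15 CPM in vehicle_Nutlin libraries, 27.4, 37.6 and 36.1 CPM in AG120 libraries and 26.4, 25.4 and 23.4 CPM in vehicle libraries. The Nutlin libraries formed 1 low band, well under the 23.4 CPM of the lowest other library. All Nutlin libraries were lower in 35.1% of all genes tested within AG-120 cells and in 30.9% within vehicle cells. The log2 change was -2.36 ± 0.16 (adjusted p = 4.36e-08) in AG-120 cells and -1.96 ± 0.16 (adjusted p = 2.73e-07) in vehicle cells, and it was called in all 19 alternatives in both.

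Transcripts of the class II chains that CD74 escorts were scarce. HLA-DRA, the alpha chain of HLA-DR, had 0 to 8 counts per library, and HLA-DRB1 was at 0.599 to 1.63 CPM. CIITA, the coactivator of class II genes, averaged 0.704 ± 0.170 CPM in AG120_Nutlin, 0.811 ± 0.752 CPM in vehicle_Nutlin, 1.84 ± 0.240 CPM in AG120 and 1.35 ± 0.291 CPM in vehicle. Its change of -1.38 ± 0.56 in AG-120 cells missed the threshold (adjusted p = 0.0503) and passed in 8 of 19 alternatives (adjusted p 0.00189 to 0.143), among them those without vehicle_Nutlin replicate 2 (-1.38) or replicate 3 (-1.39). The change of -0.78 ± 0.56 in vehicle cells was not called (adjusted p = 0.258, and 0.0125 to 0.642 over the alternatives), save without vehicle_Nutlin replicate 2 (-1.76), and it was -0.23 without replicate 3. HLA-DMB, a chain of the editor that removes the CD74 fragment from class II grooves, fell by 2.07 in AG-120 cells and by 1.38 in vehicle cells on the log2 scale (adjusted p = 0.000169 and 0.0024). It had only 6 to 24 counts in the Nutlin libraries. HLA-DMA, the other chain of that editor, fell by 0.95 in AG-120 cells (adjusted p = 0.00277). In vehicle cells its change was -0.02 and not called (adjusted p = 0.949).

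HLA-DOA (chromosome 6, 32971955 to 32977389) rose where HLA-DMB fell. Its product belongs to HLA-DO, an inhibitor of HLA-DM. It had 288, 361 and 303 counts in AG120_Nutlin libraries and 306, 209 and 317 counts in vehicle_Nutlin libraries, against 0, 0 and 3 counts in AG120 libraries and 0, 0 and 1 counts in vehicle libraries. The gene was thus all but silent without Nutlin, and no other entry of the table overlaps its span. Scaled, it stood at 17.6 ± 0.258 CPM in AG120_Nutlin and 14.1 ± 1.90 CPM in vehicle_Nutlin. Over the summed counts the ratio was 369 (exact 95% interval 126 to 1790) in AG-120 cells and 941 (168 to 37200) in vehicle cells, intervals that cover counting error only. The edgeR test gave adjusted p = 3.39e-09 and 4.8e-09.

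**Figure D3:**
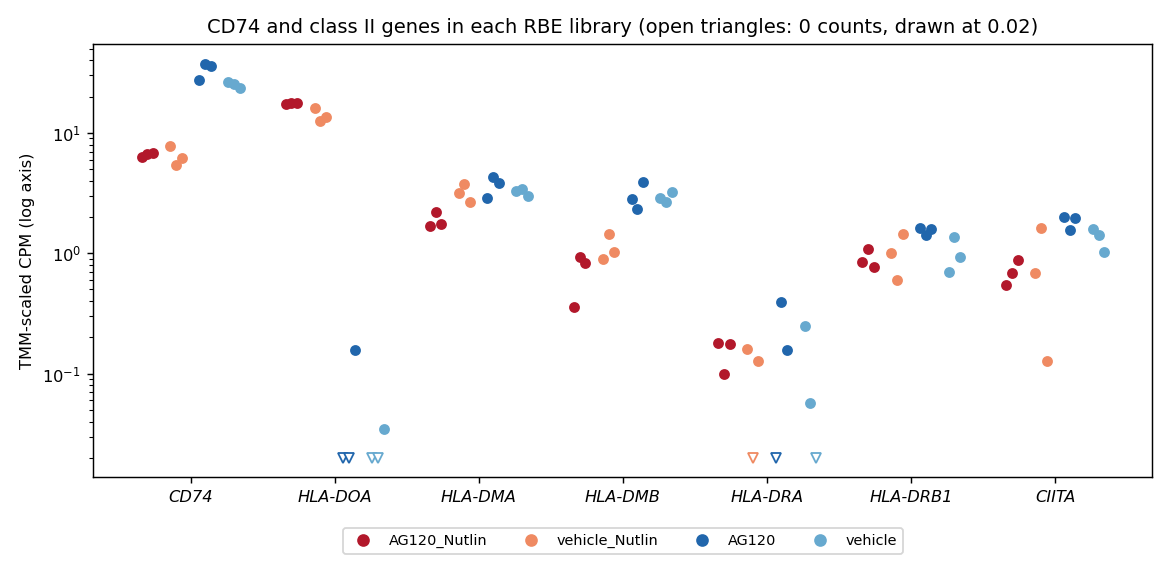
TMM-scaled CPM (log axis) of CD74, 5 class II genes and CIITA, with a point per library, colours for the 4 groups and open triangles for 0 counts. CD74 is lower in the Nutlin libraries, and HLA-DOA is at 12.5 to 17.8 CPM in them, against 0 to 0.158 CPM in the others.

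Of 50 other genes of the pathway, 41 were tested. In AG-120 cells 13 rose and 16 fell with Nutlin, where 27% of all genes tested rose and 28.8% fell. In vehicle cells 14 rose and 10 fell, where 26.8% and 27.1% of all genes did. Their median changes were -0.11 and 0.06 (log2). Among 11 genes of peptide supply and loading, 3 rose and 6 fell in AG-120 cells (27% and 28.8% of all genes), and 5 rose and 3 fell in vehicle cells (26.8% and 27.1%). TAPBPL, a tapasin relative that edits class I peptides, averaged 26.8 ± 0.356 CPM in AG120_Nutlin and 26.1 ± 4.55 CPM in vehicle_Nutlin, against 10.4 ± 1.68 CPM in AG120 and 9.20 ± 0.0898 CPM in vehicle. It rose by 1.37 in AG-120 cells and 1.51 in vehicle cells (adjusted p = 3.56e-06 and 1.74e-06). PSME2, a subunit of the PA28 proteasome activator, rose by 0.78 and 1.10 (adjusted p = 1.51e-05 and 7e-07). PDIA3, a chaperone of the peptide-loading complex, fell by 0.83 and 0.75 (adjusted p = 3.96e-05 and 0.000106). LGMN, a lysosomal protease that acts in class II processing, rose by 1.14 and 1.01 (adjusted p = 4.37e-07 and 1.54e-06).

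Of 22 regulators 21 were tested, and 8 rose and 5 fell in AG-120 cells (27% and 28.8% of all genes), while 7 rose and 5 fell in vehicle cells (26.8% and 27.1%). These counts are set beside the shares of all genes as a description of the lists. IRF1, a transcription factor that binds interferon response elements, averaged 54.5 ± 1.18 CPM in AG120_Nutlin and 55.3 ± 5.02 CPM in vehicle_Nutlin, against 39.8 ± 4.28 CPM in AG120 and 37.3 ± 0.540 CPM in vehicle. It rose by 0.45 in AG-120 cells and 0.57 in vehicle cells (adjusted p = 0.00184 and 0.000356). NFYB, a subunit of the factor that binds CCAAT boxes, fell by 0.92 and 1.04 (adjusted p = 0.0002 and 7.85e-05). The genes of the other subunits went the opposite way. NFYC rose by 0.88 and 0.60 (adjusted p = 1.9e-05 and 0.000518), and NFYA by 0.31 and 0.325 (adjusted p = 0.00979 and 0.00719). With no filter on low counts NFYA was not called in either (adjusted p = 0.108 and 0.0835), nor in AG-120 cells without AG120_Nutlin replicate 1 (0.25, adjusted p = 0.0576).

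The third comparison asked what AG-120 did in cells given Nutlin (AG120_Nutlin over vehicle_Nutlin), and none of the 9 genes was called. With DESeq2 the count was also 0. In edgeR 1 gene of the 9, TAPBP, had an unadjusted p under 0.05, as had 3067 of the 15691 genes tested. Over all genes tested, 0.433% were called higher and 1.93% lower. The fitted change of TAPBP was 0.40 (95% interval 0.03 to 0.77) without being called (adjusted p = 0.221), with the vehicle_Nutlin libraries spread from 90.1 to 167 CPM. The changes of TAP1 and CD74 were 0.055 (-0.25 to 0.36) and 0.03 (-0.32 to 0.38), that of PSMB9 was -0.10 (-0.495 to 0.29), and that of NLRC5 was 0.40 (-0.33 to 1.13). Leaving out vehicle_Nutlin replicate 1 called TAPBP higher (0.68, adjusted p = 0.0124), and leaving out replicate 3 called TAP1 higher (0.30, adjusted p = 0.016). In the fit without the 3 libraries, HLA-C (0.22) and TAP1 (0.33) were called higher (adjusted p = 0.0389 and 0.0009), 2 of 9 genes, where 3.8% of all genes were higher and 4.5% lower.

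The fourth comparison asked what AG-120 did without Nutlin (AG120 over vehicle). No gene of the 9 was called, by edgeR or by DESeq2. In edgeR 4 had an unadjusted p under 0.05, as had 1254 of the 15691 genes tested. Among all genes 0.051% were higher and 0% lower. The fitted change was above 0 for all 9 genes, as it was for 7841 of the 15691 genes tested. The median of the 9 was 0.30 (log2), against 0 over all genes tested. Those 4 were CD74 at 0.43 (95% interval 0.12 to 0.74), PSMB9 at 0.44 (0.08 to 0.79), TAP1 at 0.35 (0.04 to 0.66) and HLA-E at 0.32 (0.06 to 0.58). Their adjusted p-values were 0.445, 0.517, 0.565 and 0.516. In 5 of the 9 genes, these 4 and HLA-C, all 3 AG120 libraries lay above all 3 vehicle libraries, as they did in 11.4% of all genes tested.

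That comparison turned on the libraries that stood apart. Without them, which leaves 2 AG120 libraries, 7 of 9 genes were called higher, where 3.67% of all genes were higher and 1.81% lower. CD74 was at 0.56, PSMB9 at 0.44, HLA-B at 0.43, TAP1 at 0.32, HLA-C at 0.30, HLA-E at 0.30 and B2M at 0.22, with adjusted p-values of 0.000274 to 0.0366. TAPBP (-0.01) and NLRC5 were not called. Leaving out vehicle_Nutlin replicate 3 alone, a library outside this comparison that adds to the shared spread, called HLA-E (0.33) and TAP1 (0.35). Leaving out AG120 replicate 1 alone called none of the 9.

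**Figure D4:**
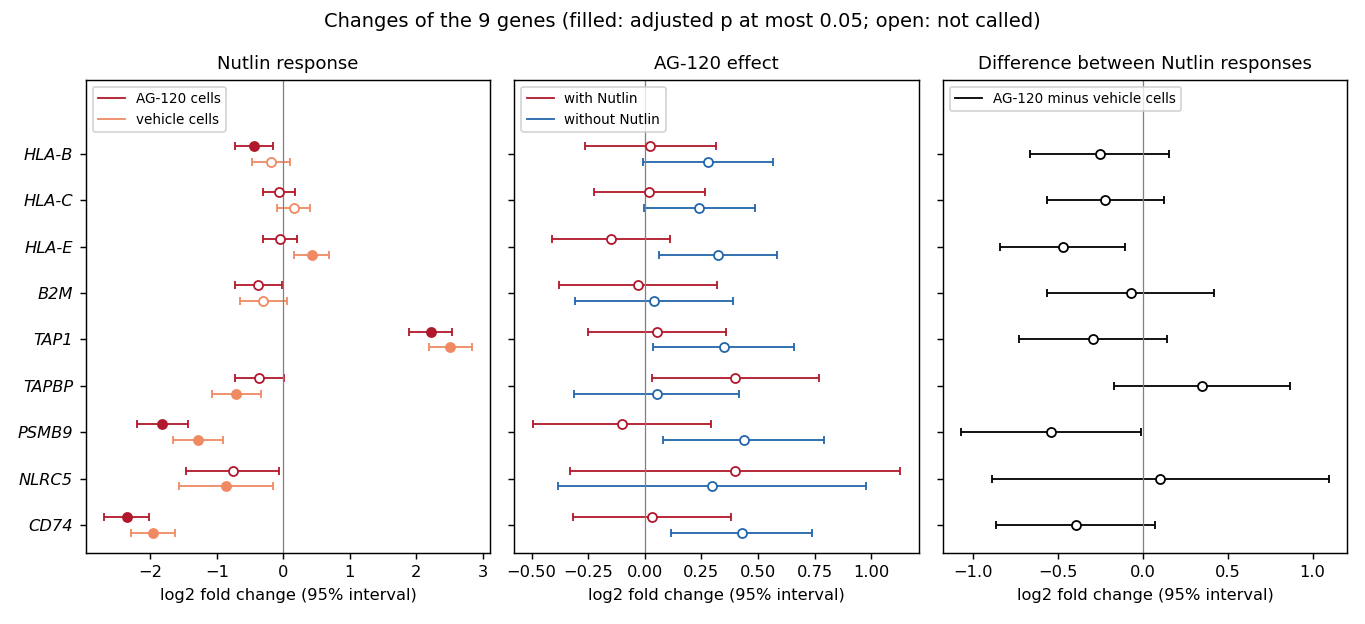
Log2 fold changes (horizontal axes) with 95% intervals for the 9 genes: the Nutlin response in AG-120 and vehicle cells, the AG-120 effect under each Nutlin condition, and the interaction of both drugs. Filled points passed an adjusted p of at most 0.05. TAP1 stands to the right and PSMB9 and CD74 to the left with Nutlin, and no point is filled in the other panels.

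The last comparison asked whether the Nutlin response differed between AG-120 and vehicle cells, as an interaction term. None of the 9 genes was called by edgeR or DESeq2. In edgeR 2 had an unadjusted p under 0.05, as had 1730 of the 15691 genes tested. Over all genes 0.0319% were called higher and 0.331% lower. HLA-E differed by -0.47 (95% interval -0.84 to -0.105, adjusted p = 0.327) and PSMB9 by -0.54 (-1.07 to -0.01, adjusted p = 0.448). For TAP1 the difference was -0.29 (-0.73 to 0.14) and for CD74 -0.39 (-0.86 to 0.07). A p above the threshold does not show that the responses were alike. When the 3 libraries were left out, CD74 alone was called, with a larger fall in AG-120 cells (-0.78, adjusted p = 0.0117, and up to 0.801 over the alternatives), 1 gene of 9, where 1.12% of all genes were higher and 2.73% lower.

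Without the 3 libraries the Nutlin comparisons held 1 gene higher and 7 lower of 9 in AG-120 cells (32.9% and 34.7% of all genes), and 2 higher and 5 lower in vehicle cells (28.6% and 29.3%). TAP1 was higher and PSMB9 and CD74 lower in both, and the comparison in vehicle cells held 1 vehicle_Nutlin library.

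The profiles of TAP1 and CD74 were compared with those of 11520 other tested genes that reached a mean of 5 CPM in a group, by Pearson correlation of log2 CPM over the 12 libraries. STARD10, GCNT3, SQSTM1, ST6GAL1 and LITAF were closest to TAP1, with r of 0.998 to 0.999. PAPSS2, C2orf72, INSIG1 and EPCAM were among the 5 closest to CD74, with r of 0.991 to 0.994. The 12 points fall into libraries with and without Nutlin, so r mainly reads that split, and 1146 genes had r over 0.95 with TAP1 and 811 with CD74. Among the 9 genes, CD74 and PSMB9 had r = 0.948, TAP1 and CD74 had r = -0.957, and TAP1 and PSMB9 had r = -0.906. Within the class I chains, HLA-C and HLA-E had r = 0.791, HLA-B and B2M had r = 0.856, and HLA-B and HLA-E had r = 0.002. HLA-C and HLA-E were both highest in vehicle_Nutlin replicate 3 (236 and 231 CPM). Among AG120 libraries, HLA-B and B2M were both lowest in replicate 1 (95.6 and 333 CPM). Both libraries stood apart over all genes, and their part in these r values was not tested.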

How the data were processed

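Per the labels, RNA of RBE cells was enriched for poly(A), and libraries were read in pairs of 150 bases. The authors deposited raw read counts per gene symbol, not normalized. The submitters' processing notes name Partek, STAR, HTSeq, DESeq2 and hg19, with no versions or roles. The deposited gene stop lies 1 base past the annotated end (13 of 13 mitochondrial genes), so 1 was subtracted.

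The analysis ran edgeR 4.0.16 under R 4.3.3: filterByExpr on the 4 groups, TMM scaling, glmQLFit with a term per group on all 12 libraries, glmQLFTest for 5 comparisons, and Benjamini-Hochberg adjustment over 15691 genes, with calls at adjusted p of at most 0.05. Standard errors were derived from the same fit, as the absolute log2 change divided by the square root of its F statistic. The 95% intervals are t intervals built on these errors. The model was tested on simulated data. The alternatives were DESeq2 1.42.0, its size factors, library totals, no filter, a replicate block, a model of only the 2 groups in question, leaving out each library, and leaving out 3 libraries. The 3 libraries left out together were those that stood apart on the principal components of these same data. For pathway genes other than the 9, all these alternatives were chosen after seeing the data.

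The 9 genes and all lists were chosen with earlier results of these data known. Named beside the 9 were MDM2, CDKN1A, IRF1, CIITA, up to 3 called pathway genes per direction and Nutlin response with the smallest adjusted p, and 5 genes most correlated with TAP1 and with CD74. HLA-DRA, HLA-DRB1, HLA-DMA, PSMB8, HLA-F, MICA, NFYA and NFYC were named after their values were seen. A further regulator and a correlated gene are not reported here. Promoter letters are from RefSeq (GRCh38.p14).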

Additional observations from a re-analysis of the deposited data

How the results depend on the processing

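Across 19 alternatives, the Nutlin calls of TAP1, PSMB9 and CD74 in both kinds of cells and of TAPBP in vehicle cells held, as did those of TAP2, TAPBPL, PSME2, PDIA3, LGMN, IRF1, NFYB, HLA-DMB and HLA-DOA. The labels do not say whether replicate numbers pair libraries. Deviations of same-numbered libraries correlated at -0.224 to 0.091, and those of differently numbered ones at -0.186 to 0.214. These ranges overlap, and such a check cannot decide whether libraries were paired. With the replicate block, 211 genes were called for AG-120 with Nutlin, 4 without Nutlin and 32 for the difference between the responses, and NLRC5 in vehicle cells was at -0.91 (adjusted p = 0.0509). DESeq2 called 903, 108 and 223 genes in the same order, no filter 1272, 104 and 283, and the fit without the 3 libraries 1374, 908 and 637. A fit of the 2 groups called 15 and 29 for the AG-120 effects. Leaving out 1 library gave 61 to 1037, 1 to 241 and 23 to 243.

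Of the 9 genes, 6 were lower with Nutlin in AG-120 cells with no filter and in the fit of 2 groups (which left 1 higher in vehicle cells, HLA-E being at adjusted p = 0.0536), 7 without the 3 libraries, and 2 to 6 when 1 library was left out (6 without vehicle_Nutlin replicate 3). Without the 3 libraries, 2 were higher for AG-120 with Nutlin, 7 without Nutlin, and 1 was lower for the difference. With 1 library left out, 0 to 1 were higher for AG-120 with Nutlin and 0 to 2 without. Without the 3 libraries these uncalled changes turned sign: HLA-C in the vehicle Nutlin response (-0.055), then with Nutlin HLA-E (0.056), B2M (0.139), TAPBP (-0.016), PSMB9 (0.32) and CD74 (-0.22), without Nutlin TAPBP (-0.01), and for the difference TAP1 (0.01), TAPBP (-0.007) and NLRC5 (-0.21). With 1 library left out, the AG-120 change with Nutlin ran from -0.055 to 0.084 for HLA-B, -0.065 to 0.165 for HLA-C, -0.238 to 0.031 for HLA-E, -0.107 to 0.128 for B2M, -0.06 to 0.30 for TAP1, -0.268 to 0.088 for PSMB9, -0.001 to 0.655 for NLRC5 and -0.074 to 0.185 for CD74. Without Nutlin it ran from -0.075 to 0.22 for B2M and -0.011 to 0.10 for TAPBP. The difference ran from -0.252 to 0.083 for B2M and -0.30 to 0.36 for NLRC5, and the vehicle Nutlin response of MICA from -0.126 to 0.048. The cause was not tested. Low counts, such as the 38 to 258 of NLRC5 per library, limit the precision of a value.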
